A study of Homo sapiens with 22 samples.

Results

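The desmosome genes described here are the desmogleins DSG1, DSG2 and DSG3, the desmocollins DSC2 and DSC3, the plakophilins PKP1, PKP2 and PKP3, plakoglobin (JUP) and desmoplakin (DSP). They were chosen by name, as 10 of the 48648 uniquely named genes in a table of normalized RNA-seq expression, and all 10 were above the limit of detection in enough libraries to be tested. The desmosome is a spot-like junction that ties the keratin filaments of one epithelial cell to those of its neighbour. Desmogleins and desmocollins are the cadherins that bridge the gap between the cells, plakoglobin and the plakophilins bind their tails in the plaque, and desmoplakin links that plaque to keratin. In stratified epithelium the basal and upper layers use DSG1, DSG3, DSC3 and PKP1 alongside DSG2, DSC2, PKP2 and PKP3, which are also found in simple epithelium such as the luminal layer of the prostate.

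RNA came from 22 libraries, all titled as RWPE1, an immortalized line of human prostate epithelial cells, and as exposed to paraquat, a herbicide that generates superoxide by redox cycling. The groups carried an empty vector made from an altered pTRIPZ (Vector, 6 libraries), wild-type NKX3.1 for overexpression (NKX3.1, 6), the NKX3.1 form R52C (R52C, 6) or the form T164A (T164A, 4). NKX3.1 is a homeobox protein that luminal cells of the prostate express. The treatment tag was missing from 3 of the 4 T164A libraries, no group was untreated, and the labels give neither a clone nor the number of cultures, so the tests reflect the spread among libraries that may be technical replicates. Values are the deposited log2 values, a difference of 1 is a doubling, and 3 was taken as the limit of detection. Depth in reads is unknown. The values taken out of the log summed to between 17256903 and 21506481 per library. Medians over the tested genes were lowest in R52C (7.36 to 7.39), followed by Vector (7.48 to 7.54), NKX3.1 (7.58 to 7.59) and T164A (7.67 to 7.68), and results whose direction or call depends on removing these shifts are named where they occur.

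Marker genes did not follow the shared cell line name. The 8 basal markers fixed for the check, among them KRT5 and TP63, were all above 3 on average in Vector, NKX3.1 and T164A, with a log2 of their summed level of 17.52 to 17.83, 17.20 to 17.36 and 17.02 to 17.11. In R52C only 5 of 8 were, with 10.30 to 10.63, and KRT15 and TP63 were among those under 3. The 8 prostate luminal markers summed to 13.17 to 14.30 in Vector, 15.70 to 15.97 in NKX3.1 and 17.57 to 17.62 in R52C, whereas in T164A they summed to 9.86 to 9.89 and KLK2, KLK3, KLK4 and TMPRSS2 were under 3. The 6 squamous differentiation markers summed to 15.90 to 16.15, 15.57 to 15.78, 8.61 to 8.95 and 9.58 to 9.81 in the order Vector, NKX3.1, R52C and T164A, and in R52C only 2 of 6 were above 3. Neuronal and embryonic markers summed to 14.14 to 14.19 in T164A, where 5 of 5 were above 3, and to no more than 7.67 elsewhere. Mesenchymal markers reached 14.09 to 14.17 in T164A and 11.67 to 12.48 elsewhere. Of these, VIM, FN1, COL3A1 and LUM averaged highest in T164A. COL1A1 averaged 9.20 in T164A, below Vector (10.67) and NKX3.1 (10.56) but above R52C (8.05), and COL1A2 averaged under 3 in every group. Endothelial and immune markers stayed at or under 8.18 in every library. The part of these differences in the results below was not tested, and in bulk RNA fewer cells of a type and less RNA per cell cannot be told apart.

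Against Vector, desmosome RNA was far lower in R52C and lower in T164A, and it differed little in NKX3.1. The 10 genes together made up 1.04% to 1.13% of the summed linear signal of named genes in Vector and 0.949% to 1.01% in NKX3.1, against 0.213% to 0.222% in T164A and 0.103% to 0.110% in R52C, so that the 4 groups did not overlap. In R52C 9 of the 10 genes fell and DSG2 rose slightly, where 83.8% of the 21325 tested genes were called, 42.2% higher and 41.6% lower. The R52C libraries lay apart from Vector for 9 of the 10, DSG2 being the exception, as they did for 70.8% of tested genes. Of the 10, 8 fell by at least 1 on the log2 scale, a size of fall reached by 23.6% of tested genes. In T164A 8 genes fell and DSG2 and PKP2 rose, where 82.2% of tested genes were called, 40.6% higher and 41.6% lower, and all 8 fell by at least 1, as did 22.2% of tested genes. T164A and Vector did not overlap for any of the 10, nor for 71.1% of tested genes. The median change of the 10 genes was -2.97 in R52C and -2.30 in T164A, beside 0.01 and -0.04 over all tested genes. Both comparisons share the Vector libraries. Calls are those of limma with Benjamini-Hochberg adjustment over all tested genes at an adjusted p under 0.05, as are the adjusted p-values below unless a permutation test is named. With every library at the same median over the tested genes, T164A against Vector gave 7323 genes higher and 10333 lower in place of 8652 and 8877.

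**Figure D1:**
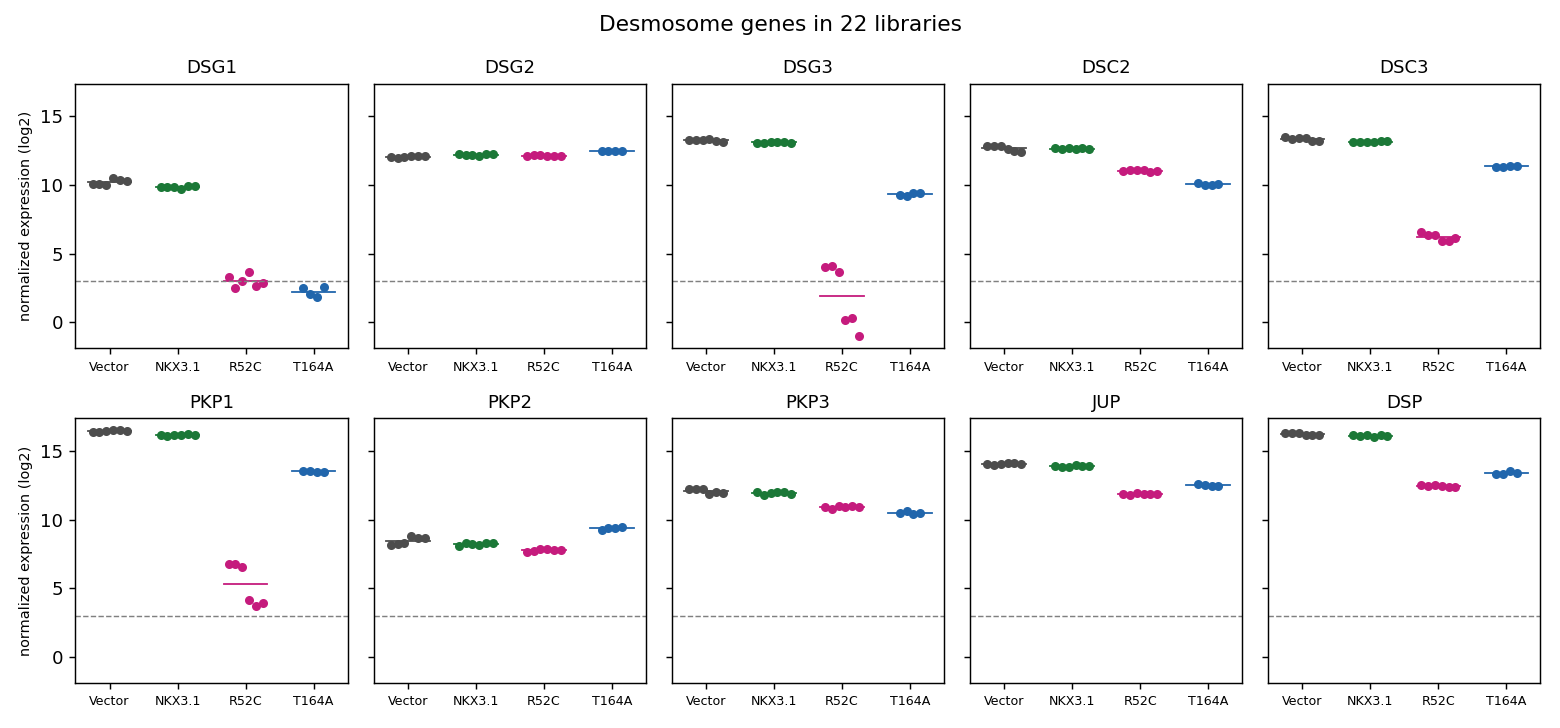
Normalized expression (log2) of the 10 desmosome genes in each of the 22 libraries, by group; points are libraries, in order of replicate number from left to right, short lines are group means, and the dashed line marks the limit of detection at 3. DSG2 lies between 11.97 and 12.49 in every library, while DSG3 and PKP1 fall in R52C to between -0.99 and 4.11 and between 3.72 and 6.77.

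The desmogleins split most clearly. DSG3, the desmoglein of the basal and lower spinous layers and the main antigen of pemphigus vulgaris, lay at 13.14, 13.28 and 13.30 (lowest, median and highest of 6) in Vector and at 13.03, 13.08 and 13.12 in NKX3.1. In T164A its 4 libraries were at 9.25, 9.19, 9.44 and 9.39, and in R52C its 6 libraries were at 4.01, 4.11, 3.67, 0.20, 0.33 and -0.99. All R52C libraries were therefore below all T164A libraries, which in turn were below all Vector and NKX3.1 libraries, and 3 of the R52C libraries were under the limit of detection. DSG3 was at least 878-fold lower in R52C than in Vector (a bound of -9.78 with values under 3 raised to 3, adjusted p = 4.99e-16) and 15.2-fold lower in T164A (change -3.93, SE 0.66, adjusted p = 5.40e-06). That SE takes 1 spread over the 4 groups, and the SD of DSG3 was 2.29 within R52C but 0.12 within T164A. Here and below, an adjusted p beside a bound is from the fit to the deposited values, with none raised to 3. For DSG3 in R52C against Vector that fit gave a change of -11.36, which rests partly on values under the limit of detection.

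DSG1, the desmoglein of the upper epidermal layers and a target of staphylococcal exfoliative toxin, ranged from 9.96 to 10.47 in Vector and from 9.73 to 9.93 in NKX3.1. It was at 3.32, 2.52, 2.98, 3.65, 2.66 and 2.87 in the R52C libraries, of which 2 of 6 were above 3, and at 2.49, 2.05, 1.83 and 2.55 in T164A, none above 3. Against Vector it was at least 131-fold lower in R52C (adjusted p = 8.04e-25) and at least 146-fold lower in T164A (adjusted p = 4.17e-24). DSG1 was thus at or near the limit of detection in both, whereas DSG3 separated them: R52C was at least 57.7-fold below T164A for DSG3 (adjusted p = 5.97e-11), and no fold is given for DSG1, since both groups were at or under the limit.

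DSG2, the desmoglein found in all tissues with desmosomes, simple epithelium and heart included, changed by 0.43 or less in every comparison. It ranged from 11.97 to 12.10 in Vector, from 12.12 to 12.24 in NKX3.1 and from 12.10 to 12.16 in R52C, and its T164A libraries were at 12.48, 12.44, 12.49 and 12.48. T164A stood above the other groups without overlap, and R52C overlapped with both Vector and NKX3.1. The changes against Vector were 0.08 in R52C (SE 0.03, adjusted p = 0.00624), 0.15 in NKX3.1 (SE 0.03, adjusted p = 4.74e-05) and 0.43 in T164A (SE 0.03, adjusted p = 3.87e-13). The R52C call was lost with Vector replicates 4 to 6 alone (0.03, adjusted p = 0.215) or R52C replicates 4 to 6 alone (0.07, adjusted p = 0.0752). NKX3.1 was above R52C by 0.07 (adjusted p = 0.0221) on the deposited scale and below it by a change of -0.15 (adjusted p = 7.95e-06) once every library was shifted to the same median over the tested genes.

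The 5 desmosomal cadherin genes lie on human chromosome 18. Because DSG1 and DSG3 fell together while their neighbour DSG2 did not, the 250 bases before the start sites of these 3 genes are shown, from RefSeq on GRCh38.p14 and on the plus strand. Such windows were found for 8 of the 10 genes, DSG1, DSG2, DSG3, DSC2, DSC3, DSP, JUP and PKP1. DSG1 is at chr18:31317910-31318159, DSG3 at chr18:31447491-31447740 and DSG2 at chr18:31497927-31498176. Capitals in DSG1 and DSG3 mark a run of 20 bases that both windows hold, and in DSG2 they mark the motif GGGCGG, the core of a GC box.
DSG1: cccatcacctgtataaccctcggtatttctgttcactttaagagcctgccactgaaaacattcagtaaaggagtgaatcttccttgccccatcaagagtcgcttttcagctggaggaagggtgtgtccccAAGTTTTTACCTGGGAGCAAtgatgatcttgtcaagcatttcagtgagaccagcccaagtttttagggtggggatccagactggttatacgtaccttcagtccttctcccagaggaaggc
DSG3: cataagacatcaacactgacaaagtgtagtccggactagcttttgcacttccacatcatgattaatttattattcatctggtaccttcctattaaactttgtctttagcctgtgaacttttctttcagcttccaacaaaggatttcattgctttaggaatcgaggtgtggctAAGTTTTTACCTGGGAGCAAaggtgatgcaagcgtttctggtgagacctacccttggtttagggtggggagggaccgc
DSG2: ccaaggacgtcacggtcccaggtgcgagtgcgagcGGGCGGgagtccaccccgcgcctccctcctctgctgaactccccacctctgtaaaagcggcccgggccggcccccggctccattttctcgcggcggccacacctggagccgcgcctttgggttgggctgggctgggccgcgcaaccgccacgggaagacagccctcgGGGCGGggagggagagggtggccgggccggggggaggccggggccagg
The shared run AAGTTTTTACCTGGGAGCAA starts at position -120 from the DSG1 start site and at -78 from that of DSG3. Of 35116 windows searched it was in 2, those of DSG1 and DSG3, and among the 43 pairs of windows compared between desmosome genes the next longest shared run was 11 bases. DSG1 and DSG3 were poor in CpG, with 3 and 4 CpG dinucleotides and a GC content of 48.0% and 42.8%. DSG2 held 26 at 75.2%, a CpG count that 82.3% of all windows did not exceed. The windows of DSC2, DSC3, DSP, JUP and PKP1, which also fell in R52C and T164A, held 12 to 33 at 59.6% to 78.0%. Any link between CpG content and the changes was not tested. The motif GGGCGG, searched on both strands, occurred in 42.6% of windows of this length, 2 times in DSG2 and 0 times in DSG1 and DSG3. It occurred 7 times in DSP, 1 time in PKP1, at most 2 times in each window of DSC2 and JUP, and 0 times in DSC3. These are descriptions of letters in a window, not of bound sites. Antisense genes overlap the exons of DSG1 (DSG1-AS1, 344 bases) and DSG2 (DSG2-AS1, 171 bases) in GENCODE v29. The library kit is not stated to mark strand, so reads from a gene and its antisense partner cannot be told apart.

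The desmocollins, which pair with the desmogleins in the gap between cells, differed from each other in both comparisons. DSC3, the desmocollin of the basal layers, ranged from 13.21 to 13.45 in Vector and from 13.08 to 13.20 in NKX3.1. It was at 11.28, 11.29, 11.38 and 11.38 in T164A and at 6.55, 6.36, 6.36, 5.95, 5.90 and 6.12 in R52C, with no overlap among the 4 groups. The fall in R52C was 7.13 (change -7.13, SE 0.08, adjusted p = 3.74e-31), and that in T164A was 4.01-fold (adjusted p = 9.25e-18).

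DSC2, the desmocollin shared with simple epithelium and heart, followed another order. It lay at 12.42, 12.71 and 12.85 (lowest, median and highest) in Vector, at 12.61, 12.64 and 12.65 in NKX3.1, at 10.96, 11.04 and 11.09 in R52C, and at 10.16, 10.01, 10.02 and 10.07 in T164A. T164A, not R52C, was lowest, and Vector and NKX3.1 overlapped. DSC2 was 3.1-fold lower than Vector in R52C (change -1.63, SE 0.06, adjusted p = 1.44e-19) and 6.07-fold lower in T164A (change -2.60, SE 0.07, adjusted p = 1.73e-22), and R52C exceeded T164A by 0.97 (adjusted p = 2.11e-13).

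Among the plakophilins, armadillo proteins that cluster the cadherins and recruit desmoplakin, PKP1 moved most. PKP1, the plakophilin of the stratified epithelium and the gene lost in ectodermal dysplasia with skin fragility, ranged from 16.38 to 16.48 in Vector, from 16.09 to 16.19 in NKX3.1 and from 13.48 to 13.54 in T164A. In R52C it was at 6.74, 6.77, 6.56, 4.17, 3.72 and 3.93, the lowest of the 4 groups in every library. Its change against Vector was -11.12 in R52C (SE 0.39, adjusted p = 7.48e-20) and -2.93 in T164A (SE 0.44, adjusted p = 8.90e-07), or 7.61-fold lower in the latter. Each SE takes 1 spread over the 4 groups, and the SD of PKP1 was 1.52 within R52C but 0.02 within T164A. The R52C change was -9.74 with replicates 1 to 3 alone and -12.5 with replicates 4 to 6 alone.

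PKP2, the plakophilin of simple epithelium and heart and a gene of arrhythmogenic cardiomyopathy, rose more in T164A than any other of the 10 genes rose against Vector. It was at 8.16, 8.21, 8.27, 8.83, 8.65 and 8.67 in Vector, ranged from 8.10 to 8.33 in NKX3.1 and from 7.62 to 7.89 in R52C, and was at 9.24, 9.39, 9.41 and 9.48 in T164A. T164A lay above and R52C below all Vector libraries. PKP2 was 1.89-fold higher in T164A (change 0.92, SE 0.10, adjusted p = 4.20e-09) and 1.6-fold lower in R52C (change -0.68, SE 0.09, adjusted p = 9.83e-08). PKP3, found in nearly all epithelial desmosomes, had medians of 12.09 in Vector and 11.95 in NKX3.1, whose libraries overlapped, and its R52C libraries (median 10.91, lowest 10.77) lay above those of T164A (10.42 to 10.61). It fell 2.25-fold in R52C (change -1.17, SE 0.06, adjusted p = 2.06e-16) and 2.97-fold in T164A (change -1.57, SE 0.07, adjusted p = 6.18e-18), and R52C exceeded T164A by 0.40 (adjusted p = 2.65e-06).

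Plakoglobin and desmoplakin fell in both R52C and T164A. JUP, which encodes the armadillo protein plakoglobin that also sits in adherens junctions, ranged from 13.99 to 14.12 in Vector and from 13.82 to 13.94 in NKX3.1, against 11.79 to 11.93 in R52C and 12.45 to 12.55 in T164A. It fell 4.52-fold in R52C (change -2.18, SE 0.03, adjusted p = 3.76e-29) and 2.92-fold in T164A (change -1.55, SE 0.03, adjusted p = 2.81e-24). DSP, the link to keratin filaments, ranged from 16.14 to 16.29 in Vector, from 16.01 to 16.17 in NKX3.1 and from 12.38 to 12.53 in R52C, and was at 13.28, 13.31, 13.54 and 13.38 in T164A. The changes were -3.77 in R52C (SE 0.04, adjusted p = 4.70e-31) and -2.84 in T164A (SE 0.05, adjusted p = 1.58e-26). R52C lay below T164A without overlap for both genes, by a change of -0.63 for JUP (adjusted p = 4.36e-16) and -0.93 for DSP (adjusted p = 1.29e-16).

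**Figure D2:**
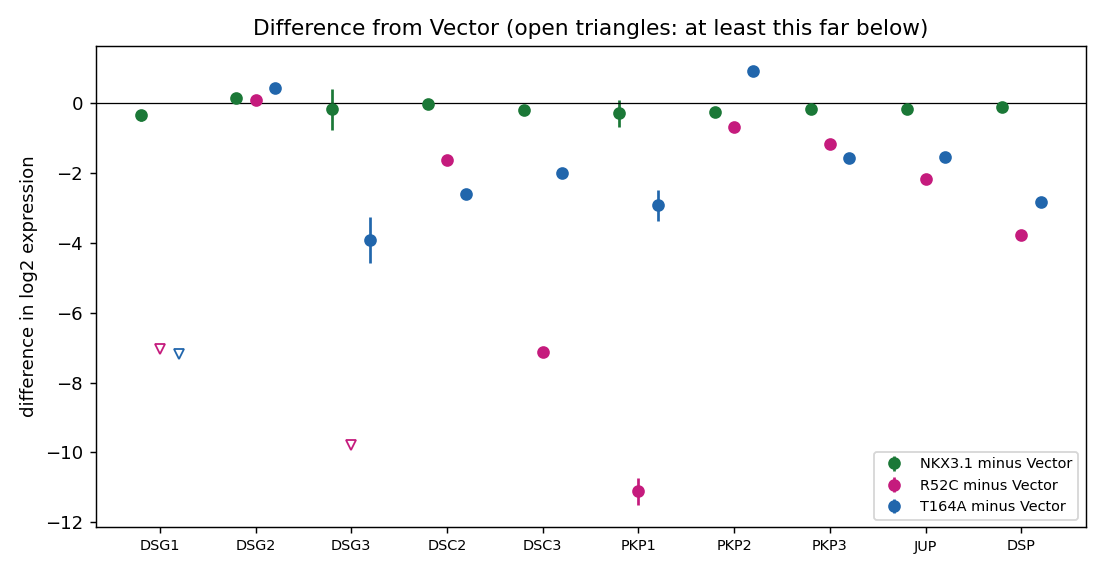
Difference from Vector in log2 expression for each desmosome gene, in NKX3.1 (green), R52C (magenta) and T164A (blue); bars are standard errors of the fit over all 4 groups, mostly smaller than the symbols, and open triangles are bounds where libraries were under the limit of detection. In R52C the changes run from 0.08 (DSG2) to -11.12 (PKP1), and in T164A PKP2 and DSG2 lie above 0.

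Expressed as a share of the Vector mean on the linear scale, more of the genes were under 1% in R52C than in T164A. In R52C DSG2 was at 104% to 109%, PKP2 at 54.6% to 66.0%, PKP3 at 40.2% to 47.3%, DSC2 at 30.5% to 33.2%, JUP at 20.8% to 23.0% and DSP at no more than 7.78%. DSC3 was at 0.578% to 0.904% there, PKP1 was at 0.0149% to 0.123%, and DSG3 was at no more than 0.178%. In T164A PKP2 was at 169% to 199% and DSG2 at 132% to 136%, JUP, PKP3 and DSC3 at 24.0% to 36.1%, DSC2, DSP and PKP1 at 12.9% to 17.4%, and DSG3 at 6.01% to 7.14%. Only DSG1, at no more than 0.498%, was under 1% in T164A, and its libraries were under the limit of detection. The basal markers KRT5 and TP63 in the same T164A libraries reached 40.6% and 47.1%, and KRT14 at 88.0% to 103%.

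The R52C group itself held a split for part of these genes. Replicates 1 to 3 lay above replicates 4 to 6, without overlap, for DSG3, PKP1, DSC3 and DSP, as they did for 7.25% of tested genes, and the 2 sets overlapped for the other 6 genes. Replicates 4 to 6 differed from 1 to 3 by -2.75 for PKP1, -0.44 for DSC3 and -0.09 for DSP on the log2 scale. For DSG3, which was above 3 in replicates 1 to 3 and under 3 in replicates 4 to 6, the difference was -0.93 with values under 3 raised to 3, a bound. In percent of the Vector mean the excess of replicates 1 to 3 was 0.0994 for PKP1, 0.216 for DSC3 and 0.468 for DSP. The basal marker KRT5 was at 0.0933% or more of Vector in replicates 1 to 3 and under the limit of detection in replicates 4 to 6, and TP63 was under that limit in all 6 libraries. Replicates are numbered in order of deposit and the labels give no batch. The part of basal marker RNA in the desmosome values of replicates 1 to 3 was not tested.

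**Figure D3:**
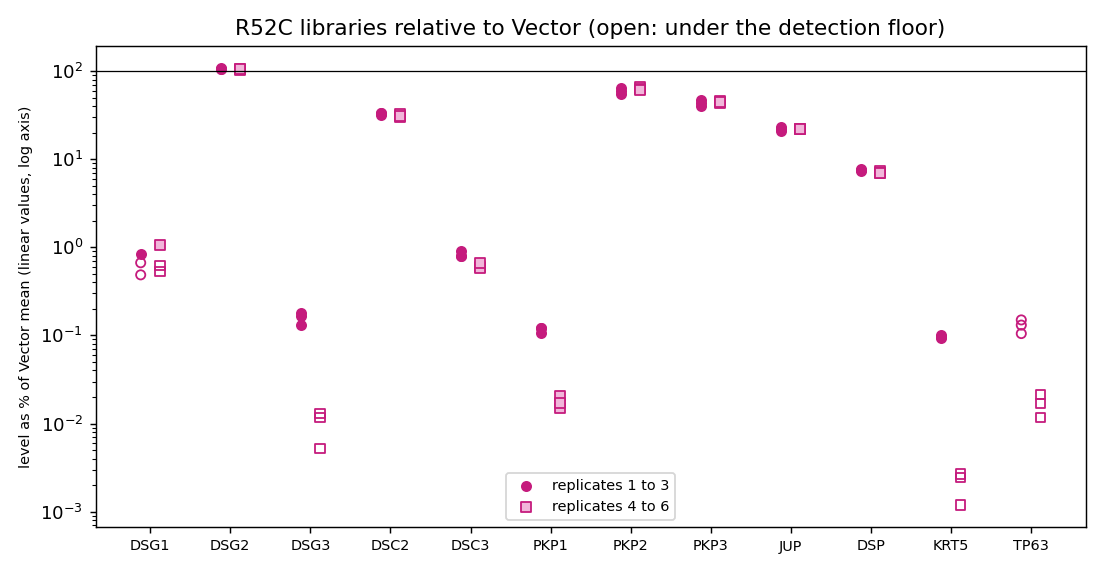
Level in each R52C library as a percent of the Vector mean (linear values on a log axis) for the 10 desmosome genes and the basal markers KRT5 and TP63; circles are replicates 1 to 3, squares replicates 4 to 6, and open symbols are under the limit of detection. For PKP1 replicates 1 to 3 lie above replicates 4 to 6, for DSG3 and KRT5 replicates 4 to 6 are under the limit, and all TP63 symbols are open.

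Wild-type NKX3.1 against Vector gave small differences in the same genes. DSG2 rose, DSC3, DSP, JUP, PKP2 and PKP3 fell, and DSG1, DSG3, DSC2 and PKP1 did not pass the test, where 41.0% of tested genes were called, 21.6% higher and 19.4% lower. After all libraries were brought to 1 median, 3528 of all tested genes were called higher and 6382 lower in place of 4606 and 4129, and DSG1 was then called as well (-0.43, adjusted p = 0.0193). No desmosome gene changed by more than 0.35, and the median of the 10 was -0.17 beside -0.01 over all tested genes. JUP fell by 0.17 (SE 0.03, adjusted p = 2.51e-05), DSC3 by 0.20 (SE 0.08, adjusted p = 0.0326), DSP by 0.11 (SE 0.04, adjusted p = 0.0316), PKP2 by 0.24 (SE 0.09, adjusted p = 0.0362) and PKP3 by 0.15 (SE 0.06, adjusted p = 0.0365). The NKX3.1 libraries lay apart from Vector for 6 genes, DSG1, DSG2, DSG3, DSC3, JUP and PKP1, as they did for 23.9% of tested genes.

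For DSG1, DSG3 and PKP1 the groups did not overlap although the test over 4 groups did not pass, with adjusted p = 0.0707 for a change of -0.34 (SE 0.15), 0.855 for -0.17 (SE 0.59) and 0.603 for -0.29 (SE 0.39). That fit takes 1 spread per gene over all groups, and the SD within R52C was 2.29 for DSG3 and 1.52 for PKP1 against 0.07 and 0.04 within Vector. With Vector and NKX3.1 fitted alone the adjusted p was 0.000619 for DSG1, 0.00106 for DSG3 and 9.43e-06 for PKP1. In that fit DSP, PKP2 and PKP3 missed the threshold, with adjusted p = 0.0586, 0.0601 and 0.0521. The 4-group count of 6 called genes was 3 without any one of Vector replicates 1, 2 or 3 or NKX3.1 replicates 2 or 4.

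Vector libraries also divided into replicates 1 to 3 and 4 to 6. These sets did not overlap for 8 of the 10 genes, the exceptions being DSG3 and DSC3, where 34% of tested genes did not overlap. Replicates 4 to 6 differed from 1 to 3 by 0.51 for PKP2, 0.36 for DSG1, -0.36 for DSC2 and -0.30 for PKP3, each more than NKX3.1 differed from Vector. DSC2 in NKX3.1 was below Vector replicates 1 to 3 by a change of -0.21 (adjusted p = 6.40e-06) and above replicates 4 to 6 by 0.15 (adjusted p = 0.00148). PKP2 differed from Vector replicates 1 to 3 by 0.02 (adjusted p = 0.872), and PKP3 from replicates 4 to 6 by -0.0047 (adjusted p = 0.954).

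RNA resembling the R52C libraries moved with this comparison. Its share was estimated in each library from 90 genes that averaged 8 or more in R52C and less than 3 in T164A, as the commonest ratio to R52C replicates 4 to 6. This share ran from 5.62% to 10.3% in Vector and from 24.8% to 30.7% in NKX3.1. It was 95.8% to 102% for the R52C libraries themselves and 0.186% to 0.202% for T164A. The values for R52C and T164A follow largely from how the genes and the reference were chosen, so they do not check the estimate. The log2 ratio of the remaining share, NKX3.1 over Vector, was -0.34. After the R52C profile was subtracted from each Vector and NKX3.1 library in that share and the remainder scaled up, with these 2 groups fitted alone, 15991 genes could be tested and 13.9% were called, 1.82% higher and 12.1% lower. That is 2230 genes, where the same 15991 genes in the same 12 libraries gave 7605 without subtraction. None of the 10 genes was then called lower and 5 were called higher: DSG2 by 0.18 (adjusted p = 0.00465), DSG3 by 0.17 (adjusted p = 0.00362), DSC2 by 0.22 (adjusted p = 0.0443), DSC3 by 0.13 (adjusted p = 0.0421) and DSP by 0.21 (adjusted p = 0.0101). JUP, PKP1, PKP2, PKP3 and DSG1 differed by 0.09, 0.05, -0.15, 0.03 and -0.01 and were not called. This step treats the RNA resembling R52C as a mixture. A mixture cannot be told apart here from a rise of those 90 genes within the cells. For genes nearly absent from R52C, scaling up alone raises the difference by about the size of the log2 ratio of the remaining share. The error of the estimated share is not part of the standard errors or p-values.

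**Figure D4:**
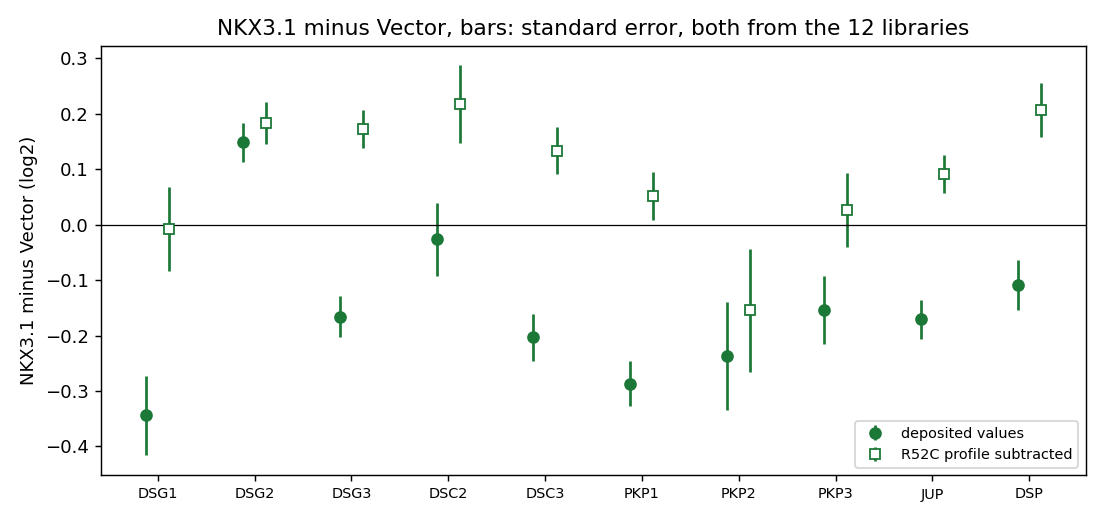
NKX3.1 minus Vector in log2 expression for each desmosome gene, from the deposited values (filled circles) and after subtraction of the R52C profile (open squares), with both groups fitted alone; bars are standard errors. DSG3, DSC2, DSC3, DSP, JUP, PKP1 and PKP3 lie below 0 before and above 0 after, and DSG2 lies above 0 in both.

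NKX3.1 exceeded R52C in all 10 genes on the deposited scale, where 80.1% of tested genes were called, 39.2% higher and 40.9% lower. With every library at the same median it exceeded R52C in all but DSG2. The 2 groups did not overlap for 9 of the 10, the exception being DSG2, as for 68.6% of tested genes. At the same median the split over all genes was 6839 higher and 10537 lower in place of 8356 and 8732. The differences were 10.83 for PKP1, 6.93 for DSC3, 3.66 for DSP, 1.60 for DSC2, 1.02 for PKP3 and 0.45 for PKP2, JUP was 4.01-fold higher, and the difference was at least 9.61 for DSG3 and at least 6.68 for DSG1. Against T164A, NKX3.1 was higher in 8 genes and lower in DSG2 (-0.28, adjusted p = 2.33e-09) and PKP2 (-1.15, adjusted p = 5.10e-11), where 81.9% were called, 42.3% higher and 39.6% lower. All 10 genes lay apart there, as did 74.4% of tested genes. Of R52C against T164A 83.8% of tested genes were called, 38.5% higher and 45.2% lower, and 9 of the 10 lay apart, DSG1 excepted, as did 78.1% of tested genes. After all libraries were brought to 1 median, 10425 were higher and 7524 lower in place of 8219 and 9648. On the deposited scale DSC2 and PKP3 were higher in R52C than in T164A, and DSG2, DSG3, DSC3, DSP, JUP, PKP1 and PKP2 were lower. DSC3 was at -5.12 (adjusted p = 6.97e-27), PKP1 at -8.19 (adjusted p = 1.06e-15) and PKP2 at -1.60 (adjusted p = 3.89e-14). DSG2, at -0.35, was no longer called with every library at the same median (-0.04, adjusted p = 0.241). DSG1 was called higher, but both groups were at or under the limit.

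A difference between 2 genes of one library needs no gene length when it is compared between groups, so the stratified and the simple paralog were set against each other. DSG3 minus DSG2 was 1.20 ± 0.11 (SD, n = 6) in Vector and 0.88 ± 0.06 (n = 6) in NKX3.1. In T164A it was -3.16 ± 0.10 (n = 4) and in R52C -8.66 ± 0.51 (n = 6, values under 3 raised to 3). DSC3 minus DSC2 was 0.67 ± 0.13 in Vector, 0.49 ± 0.04 in NKX3.1 and -4.83 ± 0.23 in R52C, but 1.27 ± 0.10 in T164A, the one pair and group in which the stratified paralog gained on the other against Vector. PKP1 minus PKP2 was 7.97 ± 0.25 in Vector and 7.92 ± 0.10 in NKX3.1, against 4.12 ± 0.11 in T164A and -2.47 ± 1.57 in R52C. Of 18 such comparisons between groups, 17 passed a two-sided exact permutation test after adjustment over the 18. Other pairs of genes were not tested, so this count does not set the 3 pairs apart from other genes. In every comparison that includes R52C or T164A, 68.6% to 78.1% of single tested genes lay apart. The smallest exact p that the design allows is 0.00216 with 6 libraries against 6 and 0.00952 with 6 against 4, and every comparison with T164A stood at it, with an adjusted p of 0.0101. NKX3.1 was below Vector by a change of -0.31 for DSG3 minus DSG2 (exact p = 0.00216, adjusted p = 0.00557, no overlap) and -0.18 for DSC3 minus DSC2 (exact p = 0.00649, adjusted p = 0.0101, overlapping), and it differed by -0.05 for PKP1 minus PKP2 (exact p = 0.665).

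Per kilobase of the longest coding transcript in GENCODE v29, DSG3 held a median of 65.0% (62.2% to 66.8%) of the summed desmoglein level in Vector and 60.3% to 62.8% in NKX3.1. In R52C DSG2 held 99.4% to 99.8%, and in T164A 88.7% or more with DSG3 at 9.95% to 11.3%. DSC3 held 71.4% to 75.5% of the desmocollin level in Vector, 4.90% to 7.31% in R52C and 79.3% to 81.9% in T164A. PKP1 held 89.9% to 92.3% of the plakophilin level in Vector, 0.317% to 2.90% in R52C and 75.4% to 76.9% in T164A. PKP3 held up to 92.8% in R52C (median 91.6%), and PKP2 held at most 7.56% in any library per transcript length. The summed log2 level per kilobase was 11.36 to 11.48, 9.56 to 9.63 and 10.05 to 10.12 for desmogleins in Vector, R52C and T164A, 10.82 to 11.10, 7.42 to 7.56 and 8.79 to 8.87 for desmocollins, and 14.09 to 14.16, 9.43 to 9.65 and 11.43 to 11.50 for plakophilins. With the coding sequence in place of the transcript, which for DSC2 shortens the length from 12325 to 2703 bases, DSC3 held 58.7% to 63.7% in Vector, 2.85% to 4.29% in R52C and 68.6% to 72.1% in T164A. By coding length PKP1 held 0.636% to 5.68% in R52C, PKP3 held 9.57% to 10.5% in T164A against 17.6% to 19.2% by transcript, and PKP2 reached 10.1% in R52C. These shares describe the levels and carry no test.

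**Figure D5:**
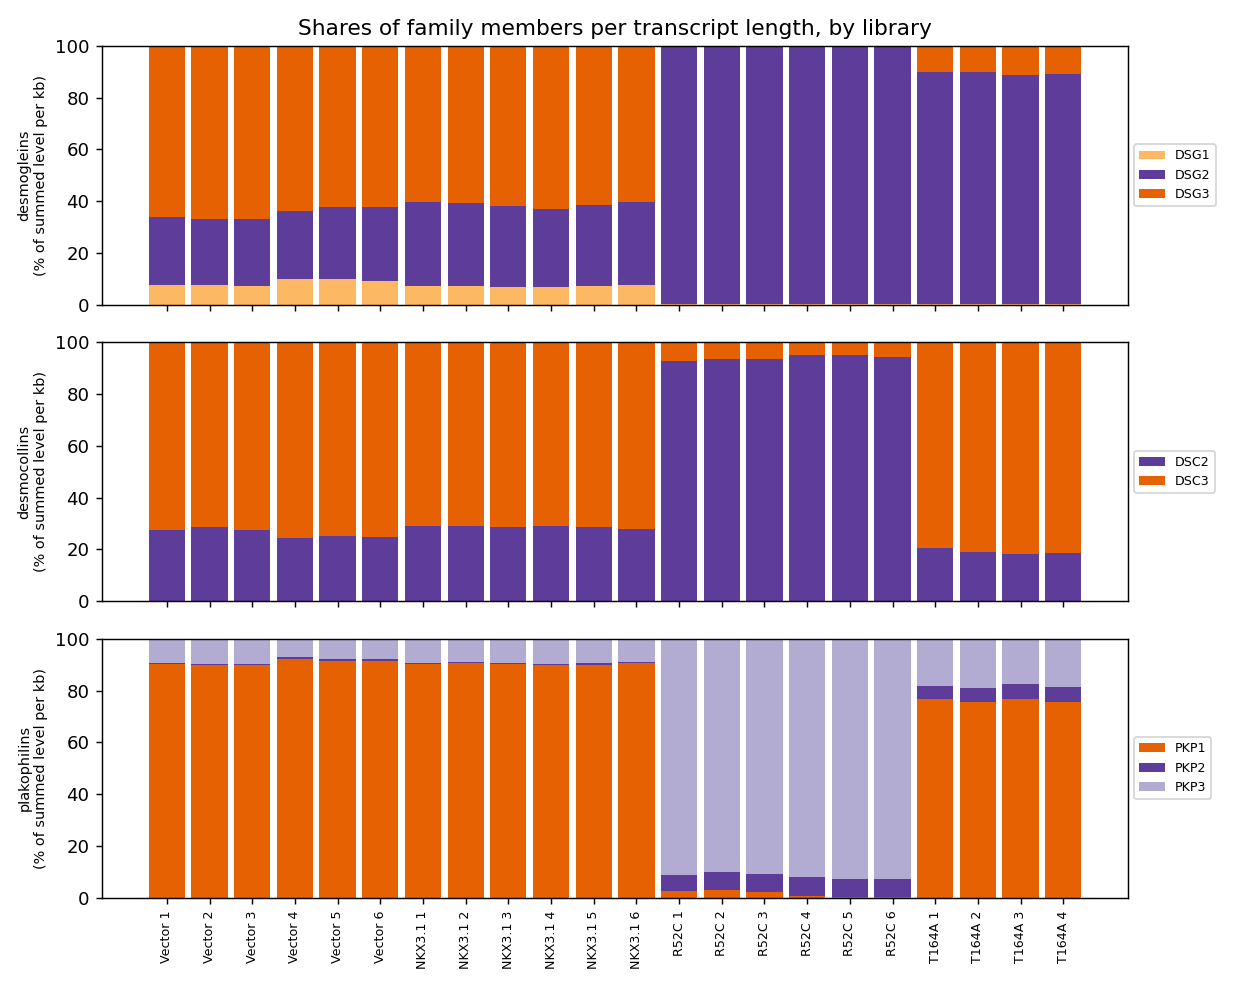
Share of each family member in the summed level per kilobase of its family (percent, linear values), for desmogleins, desmocollins and plakophilins in each of the 22 libraries; orange marks the genes of stratified epithelium and purple those also found in simple epithelium. R52C libraries are nearly all DSG2, DSC2 and PKP3, whereas in T164A libraries DSG2, DSC3 and PKP1 hold most of their families.

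Other genes of the junction are given for context, from lists chosen with earlier results of these data known. Of 5 desmosomal genes outside the 10, PERP, PKP4 and DSC1 were tested, and DSG4 and CDSN were not. PERP, a membrane protein that desmosomes of stratified epithelium need, was at 15.32 in Vector and changed by -0.20 in NKX3.1 (adjusted p = 0.000296), -3.69 in R52C (adjusted p = 2.03e-30) and -3.07 in T164A (adjusted p = 9.69e-27). PKP4, an armadillo protein related to the plakophilins, rose in all 3, by 0.13 (adjusted p = 0.00137), 0.63 (adjusted p = 2.12e-16) and 0.32 (adjusted p = 4.72e-09). DSC1, the desmocollin of the upper layers, was at 6.01 in Vector and at least 5.25-fold lower in R52C and 7.71-fold lower in T164A. Of the plakins, which link the envelope of the cell to keratin, PPL changed by -5.18 in R52C (adjusted p = 7.22e-32) and -1.29 in T164A (adjusted p = 2.09e-17), and EVPL changed by -1.92 and -2.11 (adjusted p = 6.90e-23 and 3.20e-22).

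Of 11 adherens junction genes tested, 3 rose and 8 fell in R52C, 5 rose and 6 fell in T164A, and 3 rose and 6 fell in NKX3.1, with medians of -0.88, -0.29 and -0.14. Over all tested genes 83.8%, 82.2% and 41% were called in these comparisons, with medians of 0.01, -0.04 and -0.01. CDH1, which encodes E-cadherin, changed by -0.13 in R52C (adjusted p = 0.0012) and -2.04 in T164A (adjusted p = 2.36e-25). CDH3, P-cadherin of the basal layer, changed by -6.13 in R52C (adjusted p = 7.99e-34) and -0.29 in T164A (adjusted p = 1.56e-05). CDH2, N-cadherin, rose by 5.55 in T164A (adjusted p = 1.41e-11), from 4.93 to 10.48. CTNNB1, which encodes beta-catenin, the close relative of plakoglobin in adherens junctions, rose by 0.53 in R52C (adjusted p = 9.56e-18) and 1.21 in T164A (adjusted p = 5.33e-24). The nectins PVRL1 and PVRL4 changed by -4.27 and -3.20 in R52C (adjusted p = 4.62e-35 and 1.31e-26) and by -2.18 and -4.41 in T164A (adjusted p = 2.91e-27 and 2.01e-27). CDH1 and CTNNB1 in R52C and CDH2 and CDH3 in T164A were outside the rule for naming genes and chosen after their values were seen.

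Of 10 epithelial transcription factors, 9 fell and EHF rose in R52C, and all 10 fell in T164A. Over all tested genes 42.2% were called higher and 41.6% lower in R52C, and 40.6% and 41.6% in T164A. TP63, the master factor of stratified epithelium, was at least 659-fold lower in R52C (adjusted p = 6.80e-19) and changed by -1.24 in T164A (adjusted p = 0.0204). KLF5 changed by -7.08 and -2.55 (adjusted p = 6.83e-35 and 4.35e-24), and GRHL1, a grainyhead factor, by -3.49 and -3.14 (adjusted p = 1.98e-28 and 1.37e-25). EHF, an ETS factor, rose by 1.13 in NKX3.1 (adjusted p = 8.04e-15) and 3.04 in R52C (adjusted p = 2.43e-26) and fell by 5.20 in T164A (adjusted p = 1.03e-28). Of 5 repressors of epithelial genes 4 rose and none fell in T164A, with ZEB1 up by 4.41 (adjusted p = 3.68e-17) and ZEB2 by 3.65 (adjusted p = 1.02e-11). In R52C 1 rose and 3 fell, among them SNAI2 by 5.02 (adjusted p = 2.81e-23). TP63, and KLF5 in T164A, were outside the rule for naming genes and chosen after their values were seen.

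The genes whose levels ran most like each desmosome gene over the 22 libraries were GJB2 and GJB6, connexins of stratified epithelium, for DSG3 (Pearson r = 0.999 and 0.998), SLFN13 and SFN for DSC3 (both 0.999), TGFBI and KRT6A for PKP1 (0.998 and 0.996), CLCA2 for DSP (0.999), GPR56 and NOTCH3 for JUP (both 0.999) and MUC15 and KRT10 for DSG1 (both 0.999). For DSG2 they were PRPF8, a core splicing protein, and NEO1 (both 0.951). DSC2 ran most like RALGPS1 (0.997), PKP2 like TRAM2 (0.985) and PKP3 like ZNF692 (0.994). Within the 10, r was 0.996 for DSP and JUP, 0.993 for DSG3 and DSC3 and for DSC3 and PKP1, 0.984 for DSC2 and PKP3, and 0.737 for DSG2 and PKP2, while DSG2 and DSC2 had -0.704. The points are 4 groups of libraries that stand apart from each other and share their depth scaling, and the values carry no p.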

How the data were processed

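Per the labels' protocols, poly-A RNA went into TruSeq libraries read on a HiSeq2000. Per the submitters' processing notes CASAVA 1.8.2, TopHat, Cufflinks and DESeq were used, with builds mm9 and GRCh37 (mm9 alone for T164A). How the values were normalized is not given in the sources used here. The authors deposited log2 values, not counts, so limma 3.58.1 in R 4.3.3 was used, with a trend on expression and 1 fit of the 4 groups. Of 56299 entries, 3473 without a name and 4178 sharing a symbol were left out, and testing was limited to the 21325 genes over 3 in 4 or more libraries. No libraries were identical. Permutation tests used scipy 1.17.1. The limma fit and the permutation tests were checked on simulated data with 1 spread per gene in all groups and no sets within a group. That check does not cover the wider spread within R52C or the division into replicates 1 to 3 and 4 to 6. The members, lists and tests were chosen with earlier results of these data known. Named were the 10 genes, up to 4 members of smallest p per list and comparison, and the 3 genes most like each. The level of the overexpressed gene is not reported here. Alternatives covered the fit, filter, scaling, floor, replicates 1 to 3 and 4 to 6, single libraries and the R52C profile. Those of gene length and of the genes testable after subtraction, fitted without it, were chosen after seeing the data.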

Additional observations from a re-analysis of the deposited data

Results flagged for a closer look

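DSC2 in NKX3.1 replicate 2 was at 12.61, while the other 5 libraries of the group lay between 12.64 and 12.65. Its gap to the nearest library was 0.673 of the range of the group, above Dixon's critical value for 6 libraries. Of 40 groups of values examined this was the one so marked, and chance marks about 1 in 20. Leaving it out did not change the sign or the call of DSC2 against Vector.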

How the results depend on the processing

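In the comparisons of R52C and T164A with Vector and of NKX3.1 with T164A, no alternative reversed a gene, and DSG2 in R52C, named above, was the only gene to lose its call. NKX3.1 against Vector depended more on the settings. Of its 10 genes 2 were called without the trend on expression and 2 after quantile normalization, in place of 6, and 3 to 6 when each library was left out in turn. Signs turned there for 8 genes, among them some that were not called. DSG3, DSC2, DSC3, DSP, JUP, PKP1 and PKP3 became 0.17, 0.22, 0.13, 0.21, 0.092, 0.052 and 0.026 after subtraction of the R52C profile, with which 2230 of all genes were called, against 7605 for those genes and libraries without it and 8735 in the 4-group fit. DSC2, at -0.03, also became 0.072 after quantile normalization and 0.15 against Vector replicates 4 to 6 alone, and it ran from -0.076 to 0.011 with each library left out. PKP2 became 0.016 against Vector replicates 1 to 3 alone. PKP1 minus PKP2, not called, ran from -0.12 to 0.00042 with each library left out. DSG2 in NKX3.1 against R52C became -0.15 with every library at the same median, and it lost its call without NKX3.1 replicate 6 (adjusted p = 0.057) and with R52C replicates 1 to 3 alone (adjusted p = 0.175). The cause of the quantile and trend differences was not tested. Of the values for single genes 1089 kept direction and call, 14 changed direction, 48 lost the call and 9 gained it. Depth in reads is unknown, and at levels under 3 differences were not detectable, which touches DSG1 in R52C and T164A and DSG3 in R52C. No paired analysis was possible because the labels give no replicate numbers.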
